A study of Mus musculus with 12 samples.

Results

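Brains of male CBA/N mice from a winter-like room were compared with brains of male CBA/N mice from a summer-like room, across all measured genes. The comparison uses 6 of the 12 libraries of the series, namely the 3 that carry the code MSC (winter males) and the 3 that carry the code MLW (summer males). Winter males spent 4 weeks at 10 °C with 8 h of daily light and 16 h of darkness, and summer males spent 4 weeks at 30 °C with 16 h of daily light and 8 h of darkness. All mice were wild-type CBA/N, an inbred laboratory strain, and the tissue was brain without cerebellum and olfactory bulb, taken near 13 h clock time. Levels were deposited as FPKM, that is, sequenced fragments scaled by transcript length and by library size. Of 18962 genes in the table, 12885 had at least 1 FPKM in at least 3 of the 6 male libraries and were tested. The remaining 6 libraries, 3 winter females (FSC) and 3 summer females (FLW) from the same 2 kinds of housing, gave female values to set beside the male ones and also entered the estimate of spread behind every test. The labels leave the codes unexplained; their first letter was read as sex, SC as short days in the cold and LW as long days in the warm. Light and temperature changed together, so their parts cannot be told apart. The labels give neither the age of the mice nor whether each library came from its own animal, so p-values here reflect the scatter among these libraries alone, some or all of which may be technical.

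As background, the molecular clock is a feedback loop in which the proteins of Arntl and Clock switch on Dbp, Nr1d1 and the period and cryptochrome genes, and the products of several of these genes then switch the loop off. Day length sets this clock through the eye, and in several mammals long days raise thyrotropin and the thyroid hormone activating enzyme Dio2 near the base of the brain. Cold raises the RNA-binding proteins encoded by Rbm3 and Cirbp in cultured mammalian cells, heat raises the heat shock chaperones, and metallothioneins are small proteins that bind zinc and copper and are induced by metals and glucocorticoids.

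The 6 libraries were alike as whole profiles, with Pearson correlations between 0.9909 and 0.9957 across genes, pairs within a group and pairs between groups included. FPKM summed to between 364529 and 372418 per library, 16859 to 16947 genes lay above 0, and no counting error is given because the depth of sequencing is unknown. The 4 Y-linked genes examined summed to between 45.2 and 52.6 FPKM in the male libraries and to 0.06 or less in each female library, which matches the sex read from the code. Astrocyte, microglial, myelin, endothelial and cortical excitatory neuron markers all passed the filter, 16 of 16, 17 of 17, 19 of 19, 17 of 17 and 16 of 16 genes in turn. Winter replicate 1 stood apart in one respect, since the 27 listed markers of cerebellum, a region removed at dissection, summed to 527 FPKM there and to between 351 and 367 in the other 5 male libraries. Pcp2, a gene of cerebellar Purkinje cells, was at 24.9 FPKM in winter replicate 1, at 0.41 and 0.13 in winter replicates 2 and 3 and at 1.16, 1.13 and 1.63 in the summer males. The cerebellar markers tested, 17 in all, had a median winter minus summer difference of 0.20 on the log2(FPKM + 1) scale. Without winter replicate 1 their median was -0.05. The part of this carried-over tissue in any result was not tested. In whole tissue, fewer cells of a type and less RNA per cell cannot be told apart.

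Mt2 was the 1 gene that differed between winter and summer males by the test over all genes. Mt2 encodes metallothionein 2, one of the zinc-binding proteins of astrocytes and other cells. Its level was 155, 152 and 158 FPKM in winter replicates 1, 2 and 3 and 104, 106 and 104 FPKM in summer replicates 1, 2 and 3, an order kept for every gene here. The groups lay far apart, and within each group the 3 libraries were almost equal. The means were 155 ± 2.56 and 104 ± 1.38 FPKM (SD, n = 3 each), and Mt2 rose 1.48-fold in winter, or by 0.57 ± 0.06 on the log2(FPKM + 1) scale (difference and standard error, limma, adjusted p = 0.00186). With the replicate number added as a block the difference was again 0.57 but the call was lost (limma, adjusted p = 0.087), and with the 6 male libraries alone it passed with that block (adjusted p = 0.0261) and without it (adjusted p = 0.00139). The gene (ID 17750) lies at chr8:94172618-94173567 of GRCm38.p6. In females Mt2 stood at 126, 138 and 150 FPKM in winter and at 120, 120 and 120 FPKM in summer, again without overlap, for a difference of 0.20 that did not pass. The female minus male difference was -0.37 ± 0.08 (limma, unadjusted p = 0.000568, adjusted p = 0.999), so the larger male value did not pass as a difference between the sexes.

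Other members of the metallothionein family were not called. Mt1, which lies next to it on the chromosome and encodes a protein of the same family, stood at 339, 369 and 346.5 FPKM in winter males and at 346, 334 and 295 FPKM in summer males. The 2 groups overlapped, and the difference was 0.11 ± 0.10. Mt3, the neuronal and astrocytic growth inhibitory member, stood at 237, 263 and 256 FPKM in winter and 236, 266 and 261 FPKM in summer males, a difference of -0.01 ± 0.07 whose sign turned when single libraries were left out. Of the 9 genes in the metallothionein and zinc list, 2 had all winter values above all summer values and 1 had the opposite order (against 6.16% and 6.57% of all genes). That 1 was the zinc importer gene Slc39a10, at 46.4, 48.7 and 42.9 FPKM in winter and 51.5, 53.4 and 56.3 FPKM in summer (-0.22 ± 0.07). Slc30a3, which loads zinc into synaptic vesicles, was the other gene with winter above summer, at 40.8, 37.5 and 37.3 against 36.6, 34.7 and 29.5 FPKM (0.20 ± 0.13). Slc30a1, a zinc exporter gene, had 9.34, 9.05 and 8.16 FPKM in winter and 8.32, 7.4 and 8.09 in summer, and its groups overlapped.

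The sequence upstream of Mt2 is shown because Mt2 is the called gene, and that of the clock gene Ciart because Ciart had the largest difference among the named genes with all winter values above all summer values. Both windows are the 250 bases before the gene start in RefSeq's GRCm38.p6 table, read along the gene. Capitals mark, in Mt2, the core of the metal response element, searched on both strands as TGCACNC or TGCGCNC, and in Ciart the E-box CACGTG, the palindromic element that the clock activators bind. The Mt2 window (chr8:94172368-94172617, plus strand) holds 3 such cores, starting at positions -223, -128 and -50 counted back from the start. The Ciart window (chr3:95882229-95882478, minus strand) holds 3 E-boxes, starting at -116, -58 and -44 from that table's start; RefSeq's outermost end of Ciart, 95882257, lies inside the window, so its last bases are within the longest form of the gene. Among 10145 promoters of tested genes, 31.3% held at least 1 metal response core and 2.3% at least 3, and 8.55% held at least 1 E-box and 0.128% at least 3. A match is a description of the letters only.
Mt2: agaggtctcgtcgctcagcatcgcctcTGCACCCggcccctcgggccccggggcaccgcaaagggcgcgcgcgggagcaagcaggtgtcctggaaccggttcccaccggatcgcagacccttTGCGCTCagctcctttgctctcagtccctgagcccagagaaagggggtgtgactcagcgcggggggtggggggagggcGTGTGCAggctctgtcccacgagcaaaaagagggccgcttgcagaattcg
Ciart: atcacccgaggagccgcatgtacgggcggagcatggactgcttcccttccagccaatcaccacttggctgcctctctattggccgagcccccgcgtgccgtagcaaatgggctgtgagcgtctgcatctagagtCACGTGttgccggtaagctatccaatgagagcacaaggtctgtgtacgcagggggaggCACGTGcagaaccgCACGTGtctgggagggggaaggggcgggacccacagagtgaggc

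**Figure D1:**
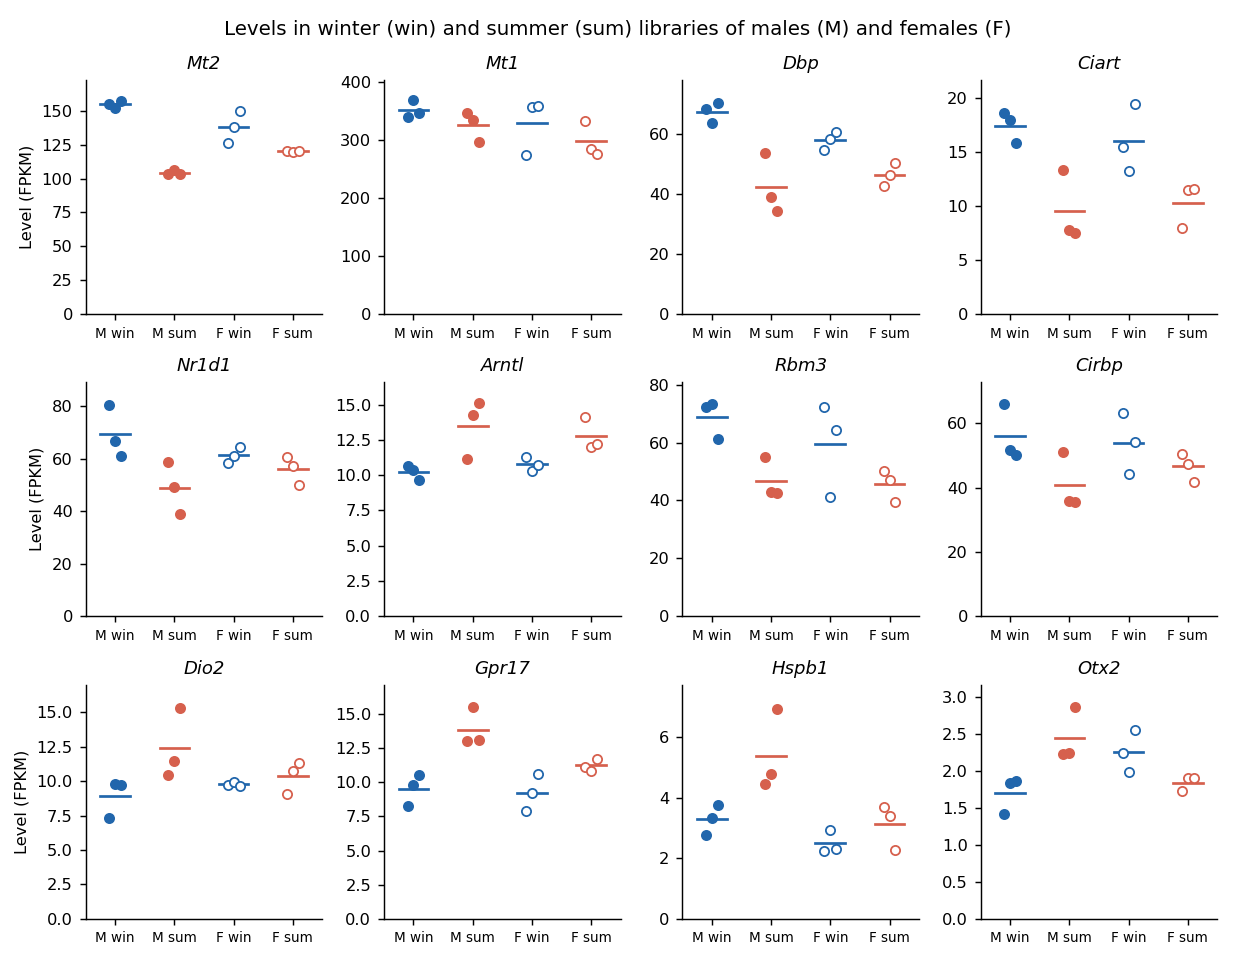
Level in FPKM (vertical axes, each from 0) of 12 genes in every library, with winter in blue, summer in red, males filled and females hollow; short lines are group means. Mt2 in winter males (152 to 158) stands clear of summer males (104 to 106), while Mt1 overlaps.

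Beyond Mt2, the differences between winter and summer males were small. Of the 12885 genes, limma called 1 at an adjusted p under 0.05 (0.00776%), and that gene was higher in winter. Before adjustment, 323 genes with a higher winter mean (2.51%) and 326 with a lower one (2.53%) had p under 0.05, 649 in all (5.04%). An unadjusted limma p under 0.05 would be reached by a share of about 0.05 of genes even if none differed. A gene called alone at the median standard error of 0.0812 would have needed a log2 difference of about 0.59. All 3 winter values lay above all 3 summer values for 794 genes (6.16%) and below them for 846 genes (6.57%), 12.7% together. With 3 libraries against 3, some genes lie apart by order alone, so such a gap is not a test. The size of these differences was modest, with a median of 0.14 on the log2 scale among the 794 and 0.13 among the 846. Only 8 of the 794 and 4 of the 846 reached 0.5. Over all genes, 90% of the male differences lay between -0.15 and 0.17, with 48.1% above 0 and 51.9% below.

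**Figure D2:**
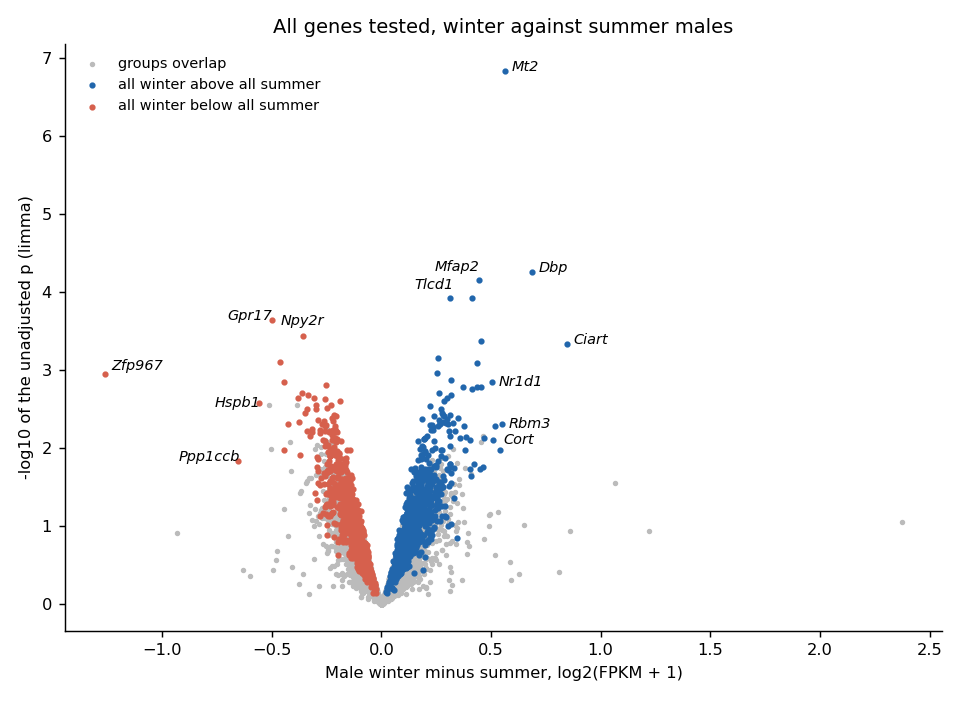
Male winter minus summer difference (horizontal axis, log2(FPKM + 1)) against -log10 of limma's unadjusted p (vertical axis) for the 12885 genes tested. Blue and red mark the 794 and 846 genes whose groups do not overlap; Mt2 stands alone at the top, above Dbp, Mfap2 and Tlcd1.

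Transcript base composition moved with the contrast. Across 12757 genes with a known transcript, the male difference had a Spearman correlation of 0.35 with GC content and -0.16 with transcript length, as a description over genes that share the same 6 libraries; in females the same correlations were -0.04 and 0.01. Single male libraries deviated from the male mean with GC content in both directions, from 0.4 in winter replicate 3 and 0.27 in winter replicate 1 down to -0.23 in summer replicate 1 and -0.38 in summer replicate 3. Genes were split into 5 groups of nearly equal size by GC content. In the group with the lowest GC content, 2.15% had all winter values above all summer values and 10.3% below. In the group with the highest GC content the shares were 13% and 1.96%. After a correction of each library for GC content the shares lay between 5.64% and 7.06% in every group. The correction subtracts each library's trend with GC content, so this levelling is built in. The corrected counts were 803 above and 776 below, and Mt2 remained the 1 gene called, at 0.54 (limma, adjusted p = 0.00105). The tested genes that the text takes from its naming rule all kept their sign under this correction. Their order was less stable. Groups apart as deposited overlapped after correction in several genes, among them Nr1d1, Oxt, Slc30a3 and Cnp. Other genes, such as Cldn5 and Tra2a, overlapped as deposited and not after correction.

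**Figure D3:**
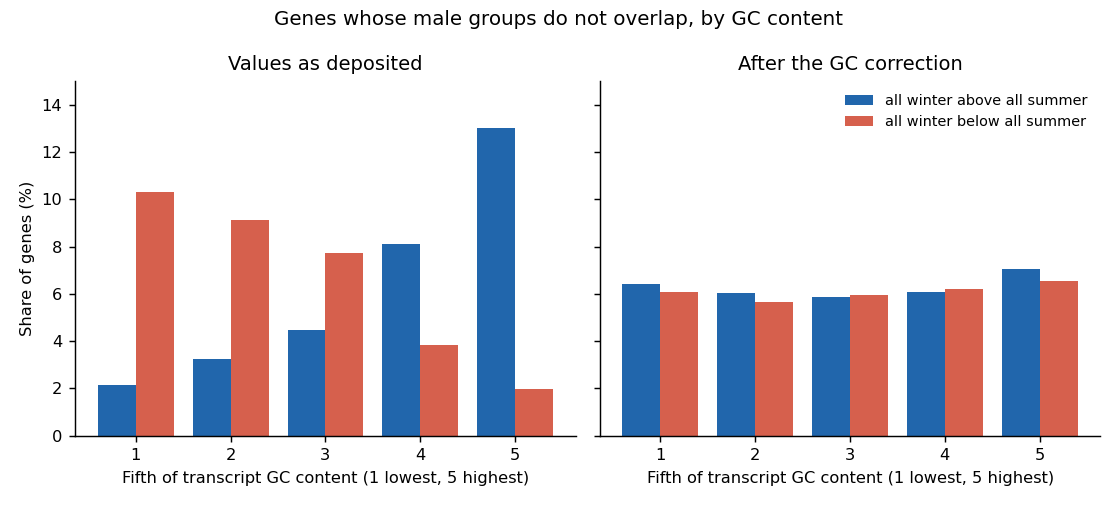
Share of genes (vertical axis, %) whose 3 winter males all lie above (blue) or below (red) the 3 summer males, by 5 nearly equal groups of transcript GC content, as deposited (left) and after correction (right). As deposited, blue climbs from 2.15% to 13% and red drops from 10.3% to 1.96%. Corrected, all bars lie near 6%, a levelling that the correction builds in.

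Clock genes held several of the smallest p-values after Mt2, though limma called 0 of the 26 clock genes tested over all genes. Dbp, a transcription factor that relays the clock's rhythm to other genes, stood at 68.4, 63.6 and 70.5 FPKM in winter males and at 53.8, 39 and 34.2 FPKM in summer males. Each winter library lay above each summer library, and summer replicate 1 was the closest to winter. The difference was 0.69 ± 0.12 (limma, unadjusted p = 5.57e-05, adjusted p = 0.305). Ciart, a repressor of the loop, stood at 18.6, 18 and 15.8 FPKM in winter and 13.4, 7.83 and 7.52 FPKM in summer, with summer replicate 1 again nearest to winter (0.84 ± 0.19, adjusted p = 0.653). Nr1d1, the nuclear receptor REV-ERB alpha that represses Arntl, stood at 80.5, 66.7 and 60.9 FPKM in winter and 58.9, 49.1 and 38.8 FPKM in summer, and its groups did not overlap (0.51 ± 0.13, adjusted p = 0.849). Arntl itself had the opposite order, at 10.7, 10.3 and 9.69 FPKM in winter and 11.2, 14.3 and 15.1 FPKM in summer (-0.36 ± 0.10). Without summer replicate 1, Dbp and Ciart passed the test over all genes, at 0.87 (adjusted p = 0.0014) and 1.09 (adjusted p = 0.0332). Leaving out the summer library nearest to winter widens the difference by construction, and neither gene passed in any other run.

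The remaining clock genes differed less. Bhlhe41, a repressor of the clock's activators, stood at 8.07, 8.22 and 8.84 FPKM in winter and 7.1, 6.76 and 6.28 FPKM in summer males, without overlap (0.28 ± 0.08). Nr1d2, the sister receptor of Nr1d1, had 36.2, 37.1 and 38 FPKM against 34.9, 33 and 34.6 FPKM, also without overlap (0.12 ± 0.09). The period genes were mixed. Per1 differed by 0.23 ± 0.22 and Per3 by 0.14 ± 0.08 with overlapping groups, and Per2 by 0.06 ± 0.21, which became -0.16 without winter replicate 3. Timeless, a replication and clock protein gene, had all winter values below all summer values (-0.19 ± 0.09). Nfil3, which competes with Dbp at its binding sites, had -0.31 ± 0.17 with overlap, or -0.17 without winter replicate 1, -0.13 without summer replicate 3 and -0.48 without summer replicate 1. Of the 6 clock output genes 5 had a positive difference, with a list median of 0.17. The 9 clock activators and nuclear receptors had a median of 0.08, or 0.05 without summer replicate 3. The 11 clock repressors had a median of 0.04, which was 0.07 without winter replicate 1, 0.02 without winter replicate 2, 0.08 without summer replicate 2 or 3, -0.07 without winter replicate 3 and -0.04 without summer replicate 1. The median over all genes tested was -0.004. The hour at which lights came on is not given in the sources used here, so the time since light onset at 13 h could differ between the rooms, and its part was not tested.

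In females the clock genes with the largest male differences had the same signs. Dbp stood at 54.6, 58.3 and 60.8 FPKM in winter females and at 42.5, 46.4 and 50.4 FPKM in summer females, and Ciart at 15.5, 13.25 and 19.5 against 7.96, 11.5 and 11.6 FPKM. Both were without overlap. Arntl, at 11.3, 10.3 and 10.7 against 14.1, 12 and 12.2 FPKM, again had the opposite order. Nr1d1 overlapped in females, at 58.4, 61 and 64.6 against 60.6, 57.5 and 50 FPKM. The female differences of Dbp, Ciart, Arntl and Nr1d1 were 0.31, 0.59, -0.22 and 0.13, and none passed the test over all genes.

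Both genes of the cold-inducible RNA-binding proteins were at higher mean levels in winter, and neither passed over all genes. Rbm3, whose protein binds RNA and is raised by mild cooling of cells, stood at 72.1, 73.2 and 61.1 FPKM in winter males and 55.1, 42.8 and 42.7 FPKM in summer males. All winter values lay above all summer values (0.55 ± 0.17, limma, adjusted p = 0.849). Cirbp, the related gene, stood at 65.8, 51.7 and 50.2 FPKM against 51.1, 35.9 and 35.6 FPKM, and summer replicate 1 lay above winter replicate 3, so the groups overlapped (0.45 ± 0.15, adjusted p = 0.866). In females the differences were 0.34 and 0.20, both with overlap.

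Heat shock and cytosolic chaperone genes lay mostly on the other side. Of the 30 tested, 27 had a lower mean in winter males and 3 a higher one, the list median was -0.10 against -0.004 for all genes, and limma called 0. Only 2 had all winter values below all summer values, which is 6.67% of the list against 6.57% of all genes. Hspb1, a small heat shock protein that holds unfolded proteins, was 1 of these, at 2.77, 3.34 and 3.77 FPKM in winter and 4.46, 4.78 and 6.92 FPKM in summer (-0.56 ± 0.15, limma, adjusted p = 0.849). The other was the co-chaperone gene Bag3, named after its values were seen (-0.17 ± 0.10). Hspa8, the abundant constitutive member of the HSP70 family, stood at 882, 1007 and 927 FPKM in winter and at 1001, 1055 and 1219 FPKM in summer, and winter replicate 2 lay above summer replicate 1 (-0.21 ± 0.08). Chordc1 and Ahsa1, co-chaperones of HSP90, had -0.28 ± 0.10 and -0.16 ± 0.06, and Cryab, a small heat shock protein of glia and lens, had -0.25 ± 0.13. Of the near-identical pair Hspa1a and Hspa1b, whose separate values are uncertain, the first had -0.07 ± 0.13 and the second -0.30 ± 0.15, or -0.48 without summer replicate 1. Relative to the male mean, the list stood lowest in winter replicate 1 (-0.15), the library with cerebellar transcripts, and highest in summer replicate 3 (0.19). Its median was -0.06 without the former, -0.04 without the latter and -0.16 without summer replicate 1. In females the median was -0.03.

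Chaperones of the endoplasmic reticulum, which fold secreted proteins, followed the same libraries. Of 22 tested, 16 had a lower mean in winter, 3 had all winter values below all summer values (against 6.57% of all genes), 0 had the opposite order, and the median was -0.10. Hsp90b1, the HSP90 of this compartment, stood at 106, 124 and 120 FPKM in winter and 129, 140 and 155 FPKM in summer, without overlap (-0.27 ± 0.11). Hspa5, also known as BiP, stood at 84.4, 114 and 117 against 102, 128 and 153 FPKM and overlapped (-0.28 ± 0.14). The protein disulfide isomerase genes Pdia6 and Pdia4 both had -0.24 ± 0.11, with overlap. The list deviated by -0.17 in winter replicate 1 and by 0.19 in summer replicate 3, and its median was -0.05 without the first, -0.04 without the second and -0.17 without summer replicate 1. In females the median was -0.005.

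Among named genes at higher winter levels, Mfap2 and Tlcd1 had the smallest p after Mt2 and Dbp. Mfap2, a component of extracellular microfibrils, stood at 4.27, 3.74 and 3.87 FPKM in winter males and 2.75, 2.68 and 2.5 FPKM in summer males, well apart (0.44 ± 0.08, limma, adjusted p = 0.305). Tlcd1, a membrane protein gene linked to phospholipid composition, stood at 14.4, 13.9 and 14.2 FPKM against 10.8, 12.1 and 10.8 FPKM (0.31 ± 0.06, adjusted p = 0.308). Rsph9, a component of the radial spokes of motile cilia, stood at 10.4, 11.1 and 9.54 FPKM against 6.99, 7.01 and 8.6 FPKM (0.41 ± 0.08, adjusted p = 0.308). In each of these 3 genes the winter libraries all exceeded the summer libraries. Klhl40, best known as a stabilizer of muscle thin filaments, Tspan4, a tetraspanin, and B3galt4, a ganglioside synthesis enzyme, had 0.46 ± 0.10, 0.44 ± 0.10 and 0.46 ± 0.12. Slc25a28, the mitochondrial iron importer mitoferrin 2, and Ddx49, an RNA helicase gene, had 0.26 ± 0.06 each. Hhatl, a relative of the hedgehog acyltransferase, Amn, a partner of the vitamin B12 receptor in gut and kidney, and Gdf10, a growth factor of the BMP family, had 0.32 ± 0.08, 0.44 ± 0.11 and 0.37 ± 0.10. Cort, which encodes the interneuron peptide cortistatin, stood at 1.49, 2.2 and 1.38 FPKM against 0.89, 0.61 and 1.13 FPKM (0.52 ± 0.16). Rbx1-ps, a pseudogene that shares sequence with Rbx1 and is therefore uncertain, had 0.47 ± 0.15. Klhl40 and Hhatl are uncertain too, because their spans overlap and reads could be split between them. All adjusted p-values in this group other than the 3 given lay between 0.653 and 0.866 (limma). The transcripts of all these genes had a GC content above 49.8%, the median of all genes tested. After the GC correction their groups still lay apart, with 0.39 for Mfap2, 0.27 for Tlcd1 and 0.26 for Hhatl. The part of base composition in these differences was not tested.

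The named genes with lower winter levels were led by Gpr17. This receptor marks oligodendrocyte precursors that are committed to becoming myelinating cells. It stood at 8.24, 9.78 and 10.5 FPKM in winter males and at 13, 15.5 and 13.1 FPKM in summer males, a clear gap (-0.50 ± 0.10, limma, adjusted p = 0.488). Npy2r, a receptor of neuropeptide Y, stood at 3.59, 3.88 and 4.15 FPKM in winter and 5.02, 5.32 and 5.4 FPKM in summer (-0.36 ± 0.08, adjusted p = 0.653). Uprt, related to an enzyme of uracil salvage, stood at 2.75, 2 and 2.6 against 3.69, 4.08 and 3.46 FPKM (-0.46 ± 0.11). For these 3 genes all winter values lay below all summer values. Zfp967, from a family of near-identical zinc finger genes and therefore uncertain, stood at 0.96, 6.2 and 2.1 against 6.85, 6.48 and 9.28 FPKM (-1.26 ± 0.31, adjusted p = 0.849), and without winter replicate 2 it passed, at -1.78 (adjusted p = 0.00108). Its winter values spread widely, with replicate 2 close to the summer libraries, so leaving that library out widens the difference by construction. Zfp967 passed in no other run. Ccpg1, a receptor for the breakdown of endoplasmic reticulum, and its antisense neighbour Ccpg1os had -0.26 ± 0.07 and -0.44 ± 0.11. Fubp1, an activator of Myc transcription that also takes part in splicing, Slc38a2, a neutral amino acid transporter gene, and Sipa1l1, a postsynaptic regulator of Rap, had -0.25 ± 0.06, -0.31 ± 0.08 and -0.19 ± 0.05. Wdr78, an axonemal dynein gene, Gon7, a tRNA modification gene, Mgme1, a nuclease of mitochondrial DNA, and Dusp11, an RNA phosphatase gene, lay between -0.38 and -0.23. Fgfbp1, which releases fibroblast growth factors from the matrix, had -0.45 ± 0.15, and the phosphatase retrocopy Ppp1ccb, again uncertain for shared sequence, had -0.65 ± 0.23, or -0.43 without winter replicate 2. Adjusted p-values for the genes of this group without one beside them were 0.849 to 0.969. Apart from Gpr17, Sipa1l1 and Ppp1ccb, their transcripts had a GC content below 49.8%, the median of all genes tested. After the GC correction the groups of Gon7 and Slc38a2 overlapped. The part of base composition was not tested here either.

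Cholesterol synthesis genes, the pathway that feeds myelin and synaptic membranes, had higher means in winter males in most steps. Of 26 tested, 23 had a positive difference, 7 had all winter values above all summer values (26.9% against 6.16% of all genes), 0 had the opposite order, and limma called 0. The median was 0.09 against -0.004 for all genes. Insig1, the sterol sensor that restrains the pathway, stood at 28.3, 32.7 and 29.6 FPKM in winter and 26.1, 25.7 and 25.2 FPKM in summer (0.22 ± 0.06, adjusted p = 0.849). Hmgcs1, the first committed enzyme of the mevalonate route, stood at 84.55, 95.3 and 88 against 79, 78 and 78.3 FPKM (0.18 ± 0.06). The summer libraries were close to each other in both genes and winter replicate 2 was the highest. Mvk and Mvd, which phosphorylate and decarboxylate mevalonate, had 0.24 ± 0.08 and 0.26 ± 0.11, also without overlap. Winter replicate 1 was the lowest winter library for the list, which stood there at -0.02 relative to the male mean, and without it the median was 0.15. In females 15 of 26 had a positive difference and the median was 0.01.

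Protein turnover and energy genes showed smaller medians. Of 36 proteasome subunits 25 had a positive difference and 7 had all winter values above all summer values (19.4% against 6.16%), with a median of 0.04 that lay between 0.01 and 0.06 when 1 male library was left out. Psmb3, a subunit of the catalytic core, stood at 72.8, 74.1 and 72.5 FPKM in winter and 67.4, 68.4 and 62.1 FPKM in summer (0.15 ± 0.06), and Psmb9, a subunit of the immunoproteasome, at 1.63, 1.54 and 1.4 against 0.94, 1.18 and 0.97 FPKM (0.31 ± 0.12). Both were without overlap. Of 74 nuclear genes of oxidative phosphorylation 51 had a positive difference, 6 were without overlap in that direction (against 6.16% of all genes) and the median was 0.03, or 0.01 without winter replicate 2. Of 79 ribosomal protein genes 35 had a positive difference, 3 lay fully above and 3 fully below (against 6.16% and 6.57% of all genes), and the median was -0.01, or -0.045 without winter replicate 2; Rpl28, at 286, 310 and 287 against 245, 247 and 266 FPKM, had the highest positive difference (0.22 ± 0.07). Gapdh, the glycolytic enzyme and most abundant gene in each library, stood at 2176, 2096 and 2124 against 1984, 1947 and 1955 FPKM, without overlap (0.12 ± 0.07). Of 28 splicing factor genes 18 had a negative difference and 3 lay fully below (against 6.57% of all genes). Their median was -0.06, or -0.035 and -0.038 without winter replicates 1 and 3, -0.101 without winter replicate 2 and -0.027 without summer replicate 3. The median GC content of these genes was 43%, and after the GC correction their median difference was -0.022. In the group of genes with the lowest GC content, 10.3% lay fully below. Tra2a, a splicing activator, had 31.7, 40.9 and 36.5 FPKM in winter and 40.9, 49.1 and 53.2 in summer, with winter replicate 2 at the level of summer replicate 1 (-0.38 ± 0.11). None of these genes was called.

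Choroid plexus markers, genes of the epithelium that makes cerebrospinal fluid, had lower means in winter males and higher means in winter females. Of 14 tested, 12 had a negative difference in males, 6 had all winter values below all summer values (42.9% against 6.57%), 0 had the opposite order, and the median was -0.20. Otx2, the transcription factor that maintains this tissue, stood at 1.42, 1.83 and 1.87 FPKM in winter males and 2.23, 2.24 and 2.86 FPKM in summer males (-0.35 ± 0.10, limma, adjusted p = 0.849). Ttr, which carries thyroid hormone and retinol in the fluid, stood at 263, 368 and 307 against 363, 380 and 402 FPKM, with winter replicate 2 inside the summer range (-0.30 ± 0.12, or -0.18 without winter replicate 1). Sostdc1, a secreted BMP and Wnt antagonist, stood at 2.14, 3.61 and 2.46 against 3.09, 4.36 and 4.39 FPKM and overlapped (-0.41 ± 0.16). Cab39l, a cofactor of the kinase LKB1, had -0.21 ± 0.08 without overlap. The list was lowest in winter replicate 1, at -0.19 relative to the male mean, and its median was -0.14 without that library.

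The same markers had the opposite sign in females, where 13 of 14 had a positive difference and the median was 0.13. Otx2 stood at 2.24, 1.98 and 2.56 FPKM in winter females and 1.73, 1.9 and 1.9 FPKM in summer females, so that winter exceeded summer there in every library. Ttr stood at 414, 376 and 363 FPKM in winter females and 303, 408 and 331 FPKM in summer females, with overlap. For the female minus male difference, 0 of the 12885 genes were called by limma and 224 had an unadjusted p under 0.05 (1.74%), larger in females for 0.768% and smaller for 0.97%. Of the 14 choroid plexus markers 7 had such a p (50%), all with the larger value in females. By limma, Otx2 had 0.54 (unadjusted p = 0.00173), Sostdc1 0.70 (unadjusted p = 0.00672) and Ttr 0.45 (unadjusted p = 0.0153), and the adjusted p of all 3 was 0.999. The amount of choroid plexus left in each dissected brain was not measured apart from these genes.

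**Figure D4:**
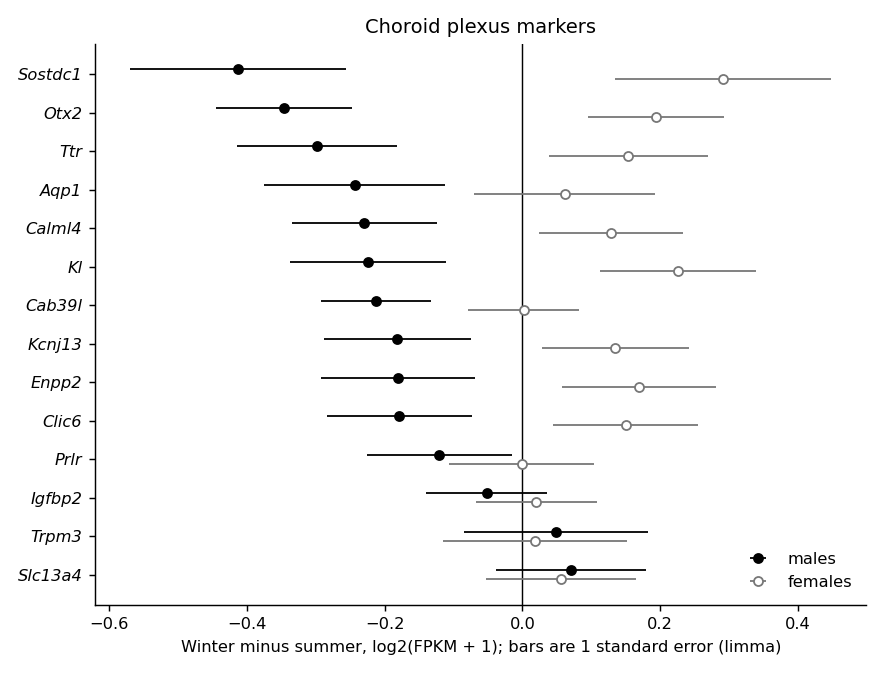
Winter minus summer difference (horizontal axis, log2(FPKM + 1)) of the 14 choroid plexus markers in males (filled) and females (hollow), with bars of 1 standard error from limma. In males 12 of 14 lie below 0 and in females 13 of 14 above it; Sostdc1, Otx2 and Ttr are farthest apart.

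Markers of the ventricle wall and the brain surface also had mostly lower means in winter males. Of 16 mural, fibroblast and meningeal markers 13 had a negative difference, 6 lay fully below in winter (37.5% against 6.57%) and the median was -0.10. Slc6a13, a GABA and taurine transporter of the meninges, stood at 4.91, 5.56 and 4.02 FPKM in winter and 6.42, 6.16 and 6.91 FPKM in summer (-0.37 ± 0.13), and Col1a1, the main fibrillar collagen gene, at 1.55, 1.45 and 1.6 against 2.01, 2.03 and 1.98 FPKM (-0.25 ± 0.09). Vtn, a pericyte matrix protein gene, stood at 35, 35.1 and 31.7 against 38.9, 38.7 and 37.2 FPKM (-0.17 ± 0.07), and Acta2, smooth muscle actin, overlapped (-0.22 ± 0.09). Of 22 collagen chain genes 5 lay fully below and 0 above (against 6.57% and 6.16% of all genes). Of 13 ependymal and cilia genes 10 had a negative difference and 3 lay fully below (against 6.57% of all genes), among them Rsph4a, a radial spoke gene (-0.23 ± 0.10), and Cfap45, an axonemal protein gene (-0.19 ± 0.08), in contrast to Rsph9 above. In females the medians of the mural and ependymal lists were 0.02 and 0.10.

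**Figure D5:**
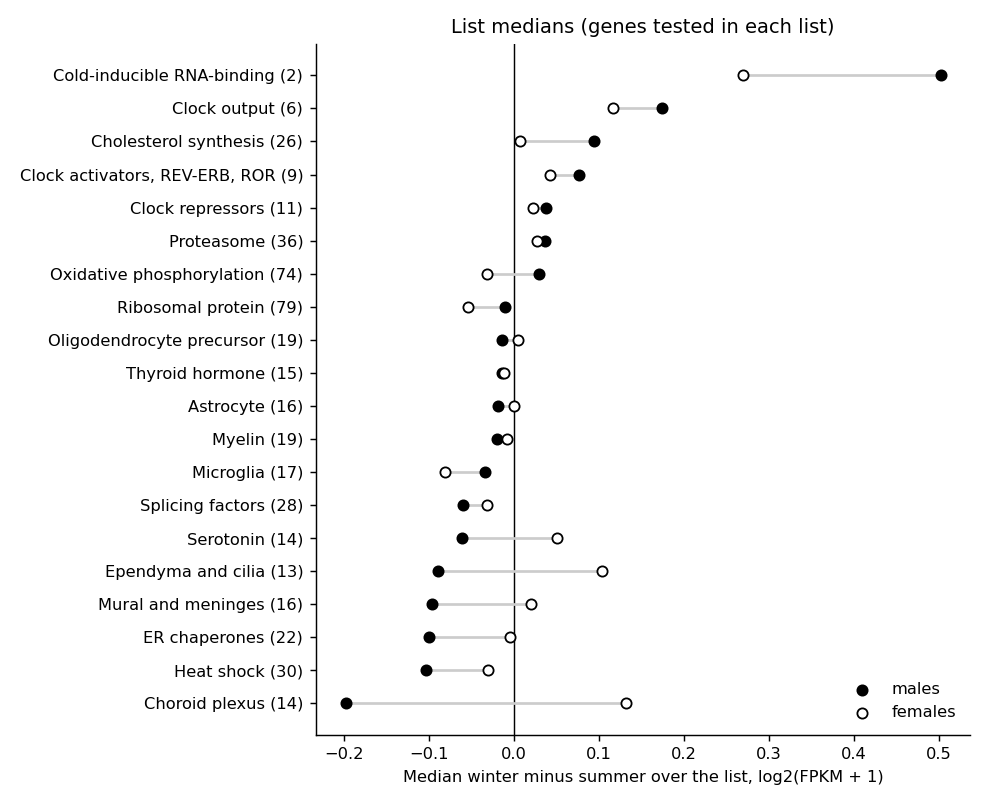
Median winter minus summer difference (horizontal axis, log2(FPKM + 1)) over 20 gene lists in males (filled) and females (hollow), with the number of genes tested in each list. Of these 20 lists, chosen from 56 with a tested member, choroid plexus lies lowest in males (-0.20) and the 2 cold-inducible genes highest (0.50). Among the lists not shown are the cerebellar list, at 0.20 in males, and the blood list, at 0.17.

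Oligodendrocyte genes were divided. Of 19 precursor genes 8 had a positive and 11 a negative difference, with a median of -0.01, or -0.05 without summer replicate 3, and 2 lay fully below in winter (against 6.57% of all genes), Gpr17 and Tnr. Tnr, an extracellular matrix glycoprotein gene, stood at 21.3, 21.45 and 20.8 FPKM in winter and 24.1, 24.1 and 26.7 FPKM in summer (-0.23 ± 0.07). Olig2, which specifies the lineage, had -0.18 ± 0.07 with overlap. Among 19 myelin genes 2 lay fully above, Mog and Cnp, and 1 fully below (against 6.16% and 6.57% of all genes). Mog, a surface protein of myelin, stood at 41, 44.1 and 41.3 against 39.3, 35.9 and 35.6 FPKM (0.19 ± 0.06), and Cnp at 137, 140 and 136 against 134, 124 and 115 FPKM (0.15 ± 0.06). Opalin, a marker of mature cells, stood at 21.2, 21.7 and 17.5 against 19.1, 13.9 and 10.9 FPKM and overlapped (0.46 ± 0.15, or 0.28 without summer replicate 3), and Car2, carbonic anhydrase 2, had -0.16 ± 0.07. The myelin median was -0.02, or -0.06 without summer replicate 3.

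Lists of astrocyte, microglial and endothelial markers had medians between -0.05 and -0.02. Of 16 astrocyte markers 12 had a negative difference with a median of -0.02; Gfap, the intermediate filament of these cells, stood at 51.1, 56.1 and 53.1 FPKM in winter and 64.1, 57.4 and 57.6 FPKM in summer (-0.16 ± 0.08). Aldh1l1, a folate enzyme gene of astrocytes, had the opposite order (0.12 ± 0.05), and both were without overlap. Of 17 microglial markers 12 had a negative difference with a median of -0.03, and Tyrobp, an adaptor of immune receptors, lay fully below (-0.24 ± 0.11). Of 17 endothelial markers 3 lay fully below and 1 above (against 6.57% and 6.16% of all genes). Cldn5, the tight junction protein of brain vessels, stood at 10.45, 12.4 and 10.9 FPKM in winter and 12.3, 20.4 and 17.1 FPKM in summer, and winter replicate 2 exceeded summer replicate 1 (-0.50 ± 0.17). Sox2, a factor of neural stem cells and glia, stood at 12.8, 13.3 and 12.7 against 14.5, 16.2 and 15.9 FPKM (-0.25 ± 0.08). Haemoglobin Hba-a1, a blood gene with a near-identical copy, stood at 162, 238 and 210 against 166, 165 and 185 FPKM (0.22 ± 0.34). Of 7 haemoglobin and erythroid genes tested, 6 had a positive difference, and the median was 0.17 in males and -0.04 in females. The male median was 0.07 without winter replicate 2 and 0.25 without winter replicate 1.

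Hormone and peptide genes of the hypothalamus and their brain targets were not called. Oxt, the oxytocin gene, stood at 36, 32.3 and 33.8 FPKM in winter males and 22.1, 21.3 and 30.8 FPKM in summer males, without overlap (0.46 ± 0.17). Avp, the vasopressin gene, stood at 31.3, 29.4 and 34.2 against 26.1, 24.1 and 21 FPKM, also without overlap (0.40 ± 0.13). These 2 were the only genes fully above among 19 hypothalamic and arousal peptide genes tested (against 6.16% of all genes). Of the 19, 11 had a negative difference, and the list median was -0.01. In females Avp stood at 23.3, 29.6 and 29.6 against 23.5, 17.9 and 15.4 FPKM, with overlap (0.53), and Oxt had -0.07. Dio2, which makes active thyroid hormone, stood at 7.3, 9.81 and 9.75 FPKM in winter males and 10.5, 11.4 and 15.3 FPKM in summer males, without overlap (-0.42 ± 0.13, limma, adjusted p = 0.849). Its difference was -0.27 without summer replicate 3, and in females it was -0.07. Dio3, which inactivates the hormone, was under the filter, at 0.92, 0.86 and 1.15 against 0.87, 0.98 and 1.7 FPKM. Tshb, a subunit of thyrotropin, had 0.06 ± 0.15, with a sign that turned without single libraries. Of 15 genes tested in the thyroid hormone list, 8 had a negative difference, and the median was -0.014. In that list 1 gene lay fully above and 1, Dio2, fully below (against 6.16% and 6.57% of all genes). Hr, a nuclear receptor corepressor gene of the list, had 0.23 ± 0.10 with overlap. Rxrg, a retinoid receptor gene, stood at 8.41, 8.81 and 7.93 against 10.1, 10.9 and 9.66 FPKM (-0.26 ± 0.08) and was also without overlap in females (-0.21).

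Stress, activity and transmitter genes completed the set. Txnip, an arrestin-like protein that responds to glucose, stood at 6.77, 5.29 and 5.98 FPKM in winter males and 4.87, 4.42 and 4.53 FPKM in summer males (0.32 ± 0.08), and at 6.49, 5.43 and 6.16 against 4.74, 4.55 and 4.42 FPKM in females (0.33). It was without overlap in both sexes. The glucocorticoid-responsive genes Fkbp5 and Sgk1 had -0.01 ± 0.10 and 0.11 ± 0.16 in males, while Pdk4, a kinase that restrains glucose oxidation, lay fully below (-0.20 ± 0.08). Of the 26 genes tested in the glucocorticoid list, 13 had a positive difference, and the median was -0.006. In that list 3 lay fully above, Mt2 and Ddit4 (0.16 ± 0.09) among them, and 1 fully below (against 6.16% and 6.57% of all genes). Tph2, the serotonin synthesis enzyme of the brain, had -0.18 ± 0.32. Fos, induced by neuronal activity, stood at 3.1, 17.95 and 10.9 FPKM in winter and 2.92, 8.56 and 11.55 FPKM in summer (0.32 ± 0.55). None of the 27 immediate early genes was without overlap in either direction, against 12.7% of all genes. As a list they deviated by -0.40, 0.43 and 0.10 in winter and by -0.41, 0.03 and 0.25 in summer. The libraries of each group were thus widely spread, and replicate 1 was the lowest in both groups. Kcnj4, an inward rectifier potassium channel gene, stood at 44.8, 40.4 and 43.5 against 34.6, 35.1 and 33.4 FPKM (0.31 ± 0.09), and Ggcx, the vitamin K-dependent carboxylase, at 7.98, 7.79 and 8.55 against 9.29, 9.27 and 9.44 FPKM (-0.18 ± 0.07).

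The female libraries, whose levels do not enter the male differences though they enter the error, shared part of the male ordering. In females limma called 0 of the same 12885 genes, and 222 had an unadjusted p under 0.05 (1.72%), higher in winter for 0.792% of genes and lower for 0.931%. All winter values lay above all summer values for 247 genes in females (1.92%) and below for 294 (2.28%), 4.2% together. Of the 794 genes fully above in males, 510 had a positive female difference (64.2%, against 48.2% of all genes), and of the 846 fully below, 575 had a negative one (68%, against 51.8%). In both sexes 29 genes lay fully above, which is 3.65% of the male and 11.7% of the female list, and 50 lay fully below, 5.91% and 17% of the lists. Those above included Mt2, Dbp, Ciart, Rsph9, Txnip and Klhl40, whose span overlaps that of Hhatl. Those below included Gpr17, Arntl, Dusp11, Rxrg, Vtn and Ggcx, with Srsf4, an SR splicing factor gene. Across all genes the male and female differences had a Pearson correlation of 0.2 and a Spearman correlation of 0.21, as a description over genes that are not independent. Among Mt2 and the genes with the smallest male p or the largest male difference in either direction over the whole table, the female minus male difference was farthest from 0 relative to its error for Mfap2, Mt2, Amn, Hhatl and Ccpg1os, with unadjusted p of 0.000332, 0.000568, 0.0012, 0.00285 and 0.00438 and an adjusted p of 0.999 each (limma). Cfap45 and Otx2, named from their lists and so not in that set, had unadjusted p of 0.00122 and 0.00173 (limma). Since these were picked for a large male value, those p-values are too small. A p that misses the threshold does not show that the sexes responded alike.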

How the data were processed

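RNA of 12 samples of mouse brain was sequenced from strand-specific poly-A libraries, per the labels' protocols. The authors deposited 1 table of FPKM per gene; the submitters' processing notes name HISAT, RSEM and GRCm38.p6, with tool versions not given in the sources used here. FPKM values are relative within a library and their depth is unknown. The members and gene lists were chosen with earlier results of these data known. Genes that reached 1 FPKM in 3 or more of the 6 male libraries were kept, and log2(FPKM + 1), which understates changes of low genes, was fitted in limma 3.58.1 (R 4.3.3) with a mean for each of the 4 groups of 3 libraries, moderated with the mean level as trend. Benjamini-Hochberg adjustment ran over all 12885 genes, with a threshold of 0.05. A list is described by its counts and median beside those of all genes tested. The scripts were checked on simulated data and used numpy 2.4.6, pandas 2.3.3 and matplotlib 3.10.9 in Python 3.11.15.

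Symbols were restored for 25 rows that a spreadsheet had turned into dates, and 18836 IDs matched the RefSeq table of GRCm38.p6. Genes with near-identical copies (Hspa1a and Hspa1b, Hba-a1 and its copy, Zfp967, Ppp1ccb, Rbx1-ps) are uncertain, since reads could be split between them. So are overlapping genes, Klhl40 and Hhatl among them. Named genes were the called gene, in each direction the 15 with the smallest p and the 8 with the largest difference among named genes without overlap, up to 4 per described list with the smallest p, and a set of clock, temperature and hormone genes whatever their value. Genes named outside this rule are marked so. Alternatives were another pseudocount, other filters, median and quantile scaling, males only, the replicate number as a block, and leaving out each library. A lowess correction for transcript GC content (span 0.3) was added after seeing the data.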

Additional observations from a re-analysis of the deposited data

Results flagged for a closer look

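In 3 named genes the 3 winter and the 3 summer libraries lay apart in opposite directions in males and females. Over all 12885 genes tested, 7 of the 794 fully above in males lay fully below in females. Of the 846 fully below in males, 8 lay fully above in females. In females 2.28% of all genes lay fully below and 1.92% fully above. Hhatl, a relative of the hedgehog acyltransferase, had a female minus male difference of -0.41 on the log2 scale, with winter above summer in males and below it in females (limma, unadjusted p = 0.00285). Otx2, the transcription factor of the choroid plexus, had 0.54, with winter below summer in males and above it in females (limma, unadjusted p = 0.00173). Cfap45, an axonemal protein gene, had 0.46 in the same sense as Otx2 (limma, unadjusted p = 0.00122). The adjusted p was 0.999 for each of the 3 genes by limma, so none passed over all genes. They were picked for opposite orders in the 2 sexes, so their unadjusted p-values are too small. The span of Hhatl overlaps that of Klhl40, so its value is uncertain.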

How the results depend on the processing

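Mt2 kept its direction under every alternative run, between 0.54 and 0.58 on the log2 scale. Its adjusted p by limma lay between 0.00022 and 0.087, and it missed the threshold in 1 setting, the replicate block with females in the fit, where it was 0.57 and 0 genes were called higher in winter males. Same-numbered male winter and summer libraries had correlated deviations of 0.235, -0.092 and 0.102, and winter replicate 2 correlated best with summer replicate 3, so the numbers were not taken as pairs, although Per2 and Fkbp5 were highest in replicate 3 of all 4 groups. Some lists also rose from replicate 1 to 3 in both male groups, the clock repressors among them. Endoplasmic reticulum chaperones deviated by -0.17, -0.01 and 0.04 in winter and by -0.07, 0.02 and 0.19 in summer. Other lists, such as cholesterol synthesis, did not rise in this way. The replicate block called 1 gene in females, as did GC correction with the block, which called 2 genes higher in males, Mt2 and Nr1d1 (0.47, adjusted p = 0.0465). Leaving out 1 library gave 1 to 3 genes higher and 0 to 1 lower in males, and 0 to 1 in females. Of 104 genes followed, 97 never changed sign. Many of the 104 were named because their groups do not overlap. Leaving out 1 library cannot turn the sign of such a gene, so this count is no measure of robustness. The other 7 of the 104 turned when 1 male library was left out. Over these runs Pcp2 ranged from -0.86 (without winter replicate 1) to 1.4, Mt3 from -0.06 to 0.03, Tshb from -0.02 to 0.14, Per2 from -0.16 (without winter replicate 3) to 0.3, Hspa1a from -0.23 to 0.03, Fkbp5 from -0.08 to 0.05, and Fos from -0.17 (without summer replicate 1) to 0.95. The cause was not tested. Counts of male genes at an unadjusted p under 0.05 ranged from 380 to 1056. Depth is unknown, and 3 libraries a group limit the precision.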

Other observations

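Some genes had single libraries far from the rest of their group. They were chosen after their values were seen. Nap1l5, a nucleosome assembly gene that lies within the span of Herc3, stood at 211, 219 and 211 FPKM in winter males but at 0.43, 211 and 232 FPKM in summer males. Herc3, a ubiquitin ligase gene, stood at 48, 45.3 and 45.6 FPKM in winter and was highest in the same summer replicate 1, at 58.1 FPKM, with 47.4 and 47.3 FPKM in the other summer libraries. Gdf1, a growth factor gene that shares its span with Cers1, was listed at 0, 7.09 and 3.51 FPKM in winter males and 7.15, 0 and 7.92 FPKM in summer males. Cers1, a ceramide synthase gene, stood at 25.8, 19.8 and 24.5 FPKM in winter and 19.9, 28.5 and 16.3 FPKM in summer, and was highest in the libraries where Gdf1 was listed at 0. How the authors' counting divided reads between such overlapping genes was not tested.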
